A study of Mus musculus with 6 samples.

Results

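Primordial germ cells, the embryonic precursors of eggs and sperm, are set aside from the posterior epiblast when BMP and WNT signals reach it, and a small set of transcription factors then installs their identity. A later group of genes serves meiosis and the silencing of transposons, and in most other cells these genes are held off by DNA methylation and by repressor complexes bound at their promoters. Embryoid bodies grown from mouse embryonic stem cells pass through a gastrulation-like stage, so genes of the early germ cell programme can be read in them next to genes of the pluripotent and primitive streak states.

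The genes described here were 10 of the 23353 gene symbols measured, chosen by name as germ cell genes: the early factors Prdm1, Prdm14 and Tfap2c, the early germ cell markers Dppa3, Ifitm3 and Kit, and the later germline genes Tex15, Sycp3, Mael and Dazl. RNA-seq had been carried out on day 4 embryoid bodies from 2 cell lines with 3 libraries each. Wildtype was the unedited W9.5 mouse embryonic stem cell line. EVX1-Δfs was a single clone, clone 14, derived from W9.5 by genome editing and carrying frameshift mutations on both alleles of Evx1, which encodes a homeodomain transcription factor of the primitive streak. Both lines were differentiated in serum medium without LIF, the cytokine that keeps the stem cells undifferentiated, and received no other agent, and because EVX1-Δfs was 1 clone a difference between lines cannot be told apart from a difference of that clone.

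Values are normalised read counts, that is, reads per gene divided by a factor for each library, and the libraries held between 7597879 and 9914471 reads on genes. Evx1 transcript lay between 2176 and 2400 in wildtype and between 2012 and 2516 in EVX1-Δfs (log2 fold change -0.02, adjusted p = 0.950, limma), so its level does not check the labels, since a frameshift need not lower the transcript. Primitive streak markers were present in every library: T, the Brachyury factor, averaged 4643 ± 655 in wildtype and 3101 ± 450 in EVX1-Δfs (SD, n = 3). In bulk RNA of this kind, fewer cells of a type and less RNA per cell cannot be told apart. A gene counts as called below when its adjusted p from limma, was under 0.05. Genes were tested if 3 or more libraries reached a normalised count of 10, and of the 13136 such genes 660, 5.02%, were called. A gene with fewer than 3 libraries at 10 or more is too low to judge.

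The letters just upstream of the later germline genes are shown first, because the repressor complex PRC1.6 reads E-box and E2F letters at promoters of such genes. For Sycp3, Mael and Dazl the 250 bases before the transcription start in the RefSeq promoter set (GRCm38.p6) matched the NCBIM37 genome, the build equivalent to mm9, exactly once. They lie at chr10:87922082-87922331 on the plus strand, chr1:168168876-168169125 on the minus strand and chr17:50432946-50433195 on the minus strand. Each is written 5′ to 3′ in the direction of transcription, with the E-box letters CACGTG and the E2F letters TCCCGC or their reverse complement GCGGGA in capitals.
Sycp3: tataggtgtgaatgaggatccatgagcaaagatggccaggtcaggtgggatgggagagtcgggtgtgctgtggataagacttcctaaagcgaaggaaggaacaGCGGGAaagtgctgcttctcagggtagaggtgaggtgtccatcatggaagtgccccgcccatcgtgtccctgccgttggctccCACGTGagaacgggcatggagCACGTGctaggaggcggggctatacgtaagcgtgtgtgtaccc
Mael: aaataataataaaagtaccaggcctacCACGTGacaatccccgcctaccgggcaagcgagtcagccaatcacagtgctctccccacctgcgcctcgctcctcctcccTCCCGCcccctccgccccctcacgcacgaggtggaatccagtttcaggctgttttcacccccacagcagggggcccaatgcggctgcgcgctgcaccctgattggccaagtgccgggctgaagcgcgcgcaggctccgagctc
Dazl: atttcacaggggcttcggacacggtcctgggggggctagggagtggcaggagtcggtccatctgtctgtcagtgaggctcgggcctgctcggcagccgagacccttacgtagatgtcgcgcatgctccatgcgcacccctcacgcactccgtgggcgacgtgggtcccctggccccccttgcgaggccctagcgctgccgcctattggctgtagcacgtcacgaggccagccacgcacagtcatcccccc
The Sycp3 stretch holds 2 E-boxes, whose first bases lie 64 and 43 bases before the start, and 1 E2F match at 147 bases before it. The Mael stretch holds 1 E-box at 223 bases and 1 E2F match at 143 bases before the start. Neither motif occurs in the Dazl stretch, which says only that these letters are not in that window. Searched on both strands, an E-box occurs in 6.02% of the 32851 promoter entries of the same length and the E2F letters in 16.9%, while 0.429% hold at least 2 E-boxes. The Dazl stretch has 20 CpG sites and the Mael stretch 18, more than 82.1% and 78.3% of the promoter entries, and the Sycp3 stretch has 12, more than 66.5%. A match is a description of letters and not evidence that a protein was bound. Among the other genes the promoter set had entries for Prdm1, Kit and Ifitm3. These letters were not particular to the later genes: Kit, an early marker, holds 2 E2F matches and no E-box, and Prdm1 and Ifitm3 hold neither. The promoter set had no entry for Tex15, Prdm14, Tfap2c or Dppa3, so their promoters were not searched.

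Of the 10 germ cell genes, 8 passed the filter on low values and 2, Mael and Dazl, were too low to judge. Tex15 was called higher in EVX1-Δfs, no gene was called lower, and 7 of the 8 tested genes were not called. Over all tested genes 5.02% were called, 2.08% as higher and 2.95% as lower, so 1 call among 8 genes is not a result about the set as a whole. At an unadjusted p under 0.05 there were 2 higher genes, Tex15 and Kit, and 1 lower, Prdm1, against 23.1% of all tested genes. DESeq2 and edgeR on the recovered reads likewise called 1 of these genes higher and 0 lower, and they called 6.89% and 5.3% of all genes they tested. In 3 of the 8 genes, Tex15, Kit and Prdm1, the libraries of the 2 lines did not overlap, against 26.9% of tested genes. The median log2 fold change was 0.22 over the 8 genes and 0.00 over all tested genes.

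**Figure D1:**
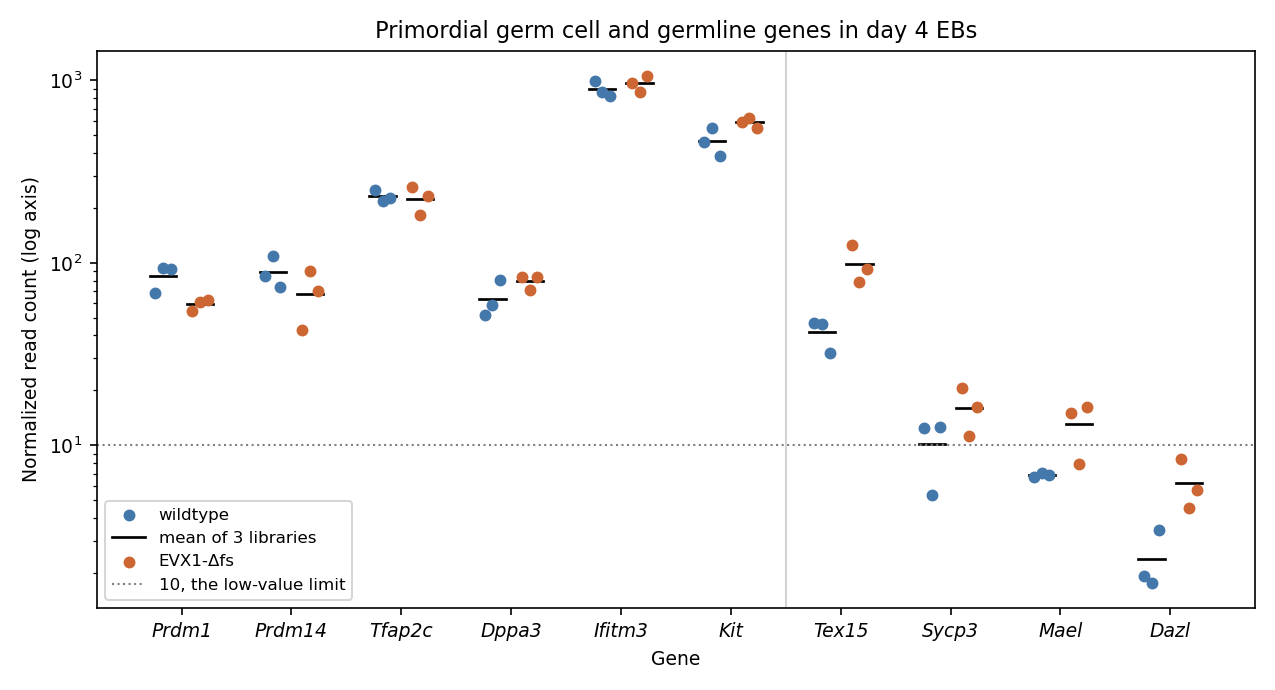
Normalised read counts of the 10 germ cell genes in each of the 6 libraries, on a log scale, with points for single libraries, coloured by line, a bar at the mean of 3 and a dotted line at 10, the limit for low values. The EVX1-Δfs points of Tex15 lie between 78.9 and 125, all above the wildtype points at 32.1 to 46.9, and the points of Dppa3, Ifitm3, Tfap2c and Prdm14 overlap between the lines.

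Prdm1 (also known as Blimp1; ENSMUSG00000038151.6, chr10:44156983-44248307, minus strand) encodes the transcriptional repressor that marks the founders of the germ cell lineage. Its normalised counts were 67.9, 93.8 and 92.7 in wildtype and 54.2, 60.9 and 62.9 in EVX1-Δfs. All 3 EVX1-Δfs libraries lay below the lowest wildtype library, as in 14.7% of tested genes. The difference, a log2 fold change of -0.50 ± 0.21 (SE; 95% interval -0.92 to -0.07), was not called (adjusted p = 0.152, limma).

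Prdm14 (ENSMUSG00000042414.7, chr1:13103538-13117244, minus strand) encodes a factor that works beside Prdm1 in germ cells and also sustains naive pluripotency. It measured 85.1, 109 and 73.3 in wildtype and 42.9, 90.2 and 70.5 in EVX1-Δfs. The second EVX1-Δfs library lay inside the wildtype range and the others below it, and the log2 fold change of -0.43 (95% interval -0.93 to 0.07) was not called (adjusted p = 0.289, limma). Tfap2c (ENSMUSG00000028640.5, chr2:172375093-172384122, plus strand), which encodes the AP-2γ factor acting downstream of Prdm1 and is also used in trophoblast and surface ectoderm, averaged 231 ± 16.3 in wildtype and 225 ± 38.3 in EVX1-Δfs. Its log2 fold change of -0.05 had a 95% interval of -0.37 to 0.26 (adjusted p = 0.871, limma), and the sign turned when trends with GC content and length were removed (log2 fold change 0.04).

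Among the early germ cell markers, Kit (ENSMUSG00000005672.6, chr5:75970941-76052747, plus strand), the receptor for stem cell factor on migrating germ cells and on blood progenitors, measured 462, 546 and 386 in wildtype and 595, 623 and 550 in EVX1-Δfs. Its groups did not overlap, all EVX1-Δfs libraries being the higher, as in 12.2% of tested genes. The log2 fold change was 0.35 ± 0.13 (SE; 95% interval 0.08 to 0.63) and was not called (adjusted p = 0.113, limma). Adjusted p for Kit lay between 0.0535 and 0.337 over the processing alternatives.

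Dppa3 (Stella; ENSMUSG00000046323.2, chr6:122576428-122580290, plus strand), which protects methylated DNA in the early embryo and is turned on in new germ cells, measured 51.7, 58.4 and 80.2 in wildtype and 84.0, 71.0 and 83.9 in EVX1-Δfs. The ranges overlapped, and the log2 fold change of 0.34 (95% interval -0.10 to 0.79) was not called (adjusted p = 0.340, limma). Ifitm3 (Fragilis; ENSMUSG00000025492.6, chr7:148195485-148196669, minus strand), an interferon-inducible membrane protein found on early germ cells, was by far the most abundant of the 10, at 897 ± 90.2 in wildtype and 963 ± 95.5 in EVX1-Δfs, with a log2 fold change of 0.10 (95% interval -0.14 to 0.35; adjusted p = 0.645, limma). The Dppa3 value is uncertain because a stretch of the X chromosome is 97.68% identical to 98.08% of its transcript, so reads may be shared. Tfap2c has a copy at 94.06% identity over 41.37% of its transcript. The Ifitm3 transcript aligned less closely to 13 other loci, at up to 89.62% identity, and Prdm14 to 1 at 84.35%.

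Tex15 (ENSMUSG00000009628.8, chr8:34627210-34696054, plus strand) is needed for meiotic recombination and for transposon silencing in male germ cells, and it was the 1 called gene of the 10. Its normalised counts were 46.9, 46.0 and 32.1 in wildtype and 125, 78.9 and 92.4 in EVX1-Δfs. Every EVX1-Δfs library was above every wildtype library. The total rose from 129 recovered reads over the 3 wildtype libraries to 301 over the 3 EVX1-Δfs libraries.

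The log2 fold change of Tex15 was 1.22 ± 0.23 (SE; 95% interval 0.74 to 1.70), or 2.33-fold on the scale of log2(normalised count + 1), with an adjusted p of 0.00395 in limma. It was higher in 3 of 3 same-numbered pairs of libraries, which adds nothing because its groups did not overlap. The call stayed when the replicate number was a block (adjusted p = 0.0202), a fit that called 1.69% of all tested genes. It also stayed with edgeR (adjusted p = 0.00279) and DESeq2 (adjusted p = 0.000946) on recovered reads, and when any 1 library was left out (log2 fold change 1.04 to 1.37, highest adjusted p 0.0446). The Tex15 exons are low in GC at 38.7%, and among the 552 tested genes with exon GC under 40%, 9.6% were called higher with a median log2 fold change of 0.33, against 1.73% and -0.01 for the other tested genes. With trends of fold change on GC content and length removed, the Tex15 value was 0.88 (adjusted p = 0.0356) and 1.98% of genes were called. With the block as well it remained 0.88 and was no longer called (adjusted p = 0.0555), in a fit that called 1.07% of genes.

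**Figure D2:**
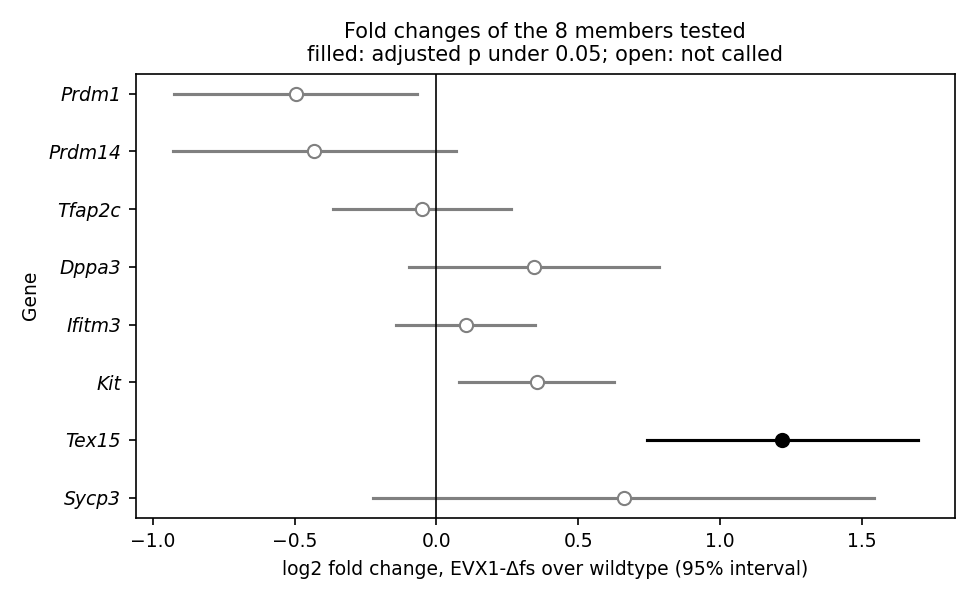
Log2 fold change of EVX1-Δfs over wildtype for the 8 tested germ cell genes, points with 95% intervals from limma, and a filled point for the called gene. The interval of Tex15, 0.74 to 1.70, lies clear of 0, those of Kit and Prdm1 lie on opposite sides of 0 without a call, and the other 5 intervals include 0.

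Sycp3 (ENSMUSG00000020059.3, chr10:87922314-87935981, plus strand) encodes a structural part of the synaptonemal complex that holds paired chromosomes in meiosis. It was low, at 12.4, 5.31 and 12.6 in wildtype and 20.5, 11.3 and 16.2 in EVX1-Δfs, from 30 and 49 recovered reads in all. The groups overlapped and the log2 fold change of 0.66 (95% interval -0.23 to 1.55) was not called (adjusted p = 0.366, limma). The Sycp3 exons are low in GC at 36.1%. With trends of GC content and length removed the log2 fold change was 0.29 (adjusted p = 0.781, limma). Of its 1264 exon bases 660 are shared with Chpt1, a phospholipid synthesis gene on the opposite strand, so reads from the pair may not be told apart. Chpt1 averaged 61.9 ± 9.05 in wildtype and 52.4 ± 15.1 in EVX1-Δfs.

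Mael (ENSMUSG00000040629.3, chr1:168131516-168168875, minus strand), which takes part in piRNA-guided transposon silencing, had 2 libraries at 10 or more and was too low to judge. Its normalised counts were 6.70, 7.08 and 6.87 in wildtype and 14.9, 7.89 and 16.2 in EVX1-Δfs, from 21 and 40 reads. Dazl (ENSMUSG00000010592.7, chr17:50418719-50432924, minus strand), an RNA-binding protein that licenses germ cells for gamete formation, reached 10 in no library, at 1.91, 1.77 and 3.44 in wildtype and 8.40, 4.51 and 5.72 in EVX1-Δfs, from 7 and 19 reads. Both genes had every EVX1-Δfs library above every wildtype library, with ratios of means of 1.89 for Mael and 2.62 for Dazl. The same held for 4.8% of the 5109 genes that had a read but missed the filter, genes with a median of 7 reads over the 6 libraries. When all genes with any read were fitted with limma, neither was called (log2 fold change 0.77, adjusted p = 0.351 for Mael and 1.09, adjusted p = 0.217 for Dazl). Exon GC was 46.6% for Mael and 37.4% for Dazl.

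Per kilobase of exon, the levels in wildtype ran from Ifitm3 at 1323 ± 133 normalised reads, through Kit at 79.7 ± 13.7, Dppa3 at 71.1 ± 16.7, Tfap2c at 62.9 ± 4.44, Prdm14 at 34.7 ± 7.06 and Prdm1 at 15.4 ± 2.67, to Sycp3 at 8.00 ± 3.29, Mael at 4.45 ± 0.124, Tex15 at 4.33 ± 0.864 and Dazl at 0.787 ± 0.306. In this order the library ranges of Kit and Dppa3, Dppa3 and Tfap2c, Sycp3 and Mael, and Mael and Tex15 overlapped. In EVX1-Δfs the 5 highest levels per kilobase came in the same order, while Sycp3 at 12.7 ± 3.67, Prdm1 at 10.8 ± 0.834, Tex15 at 10.3 ± 2.47 and Mael at 8.42 ± 2.89 formed a run of neighbours with overlapping ranges. The later germline genes were thus near the low end in both lines, and Tex15 was there at 10.3 normalised reads per kilobase even after its increase.

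Of 10630 tested genes with a mean normalised count of at least 50, the 3 whose profile over the 6 libraries was most like that of Tex15 were Arhgap32 (r = 0.996), Dock3, a Rac activator (r = 0.992), and Cdkn2aip, a binding partner of the ARF tumour suppressor (r = 0.992). Arhgap32 averaged 514 ± 24.2 in wildtype and 665 ± 39.8 in EVX1-Δfs, and none of the 3 was itself called. With 6 libraries in 2 groups, 385 genes reached r of at least 0.9.

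**Figure D3:**
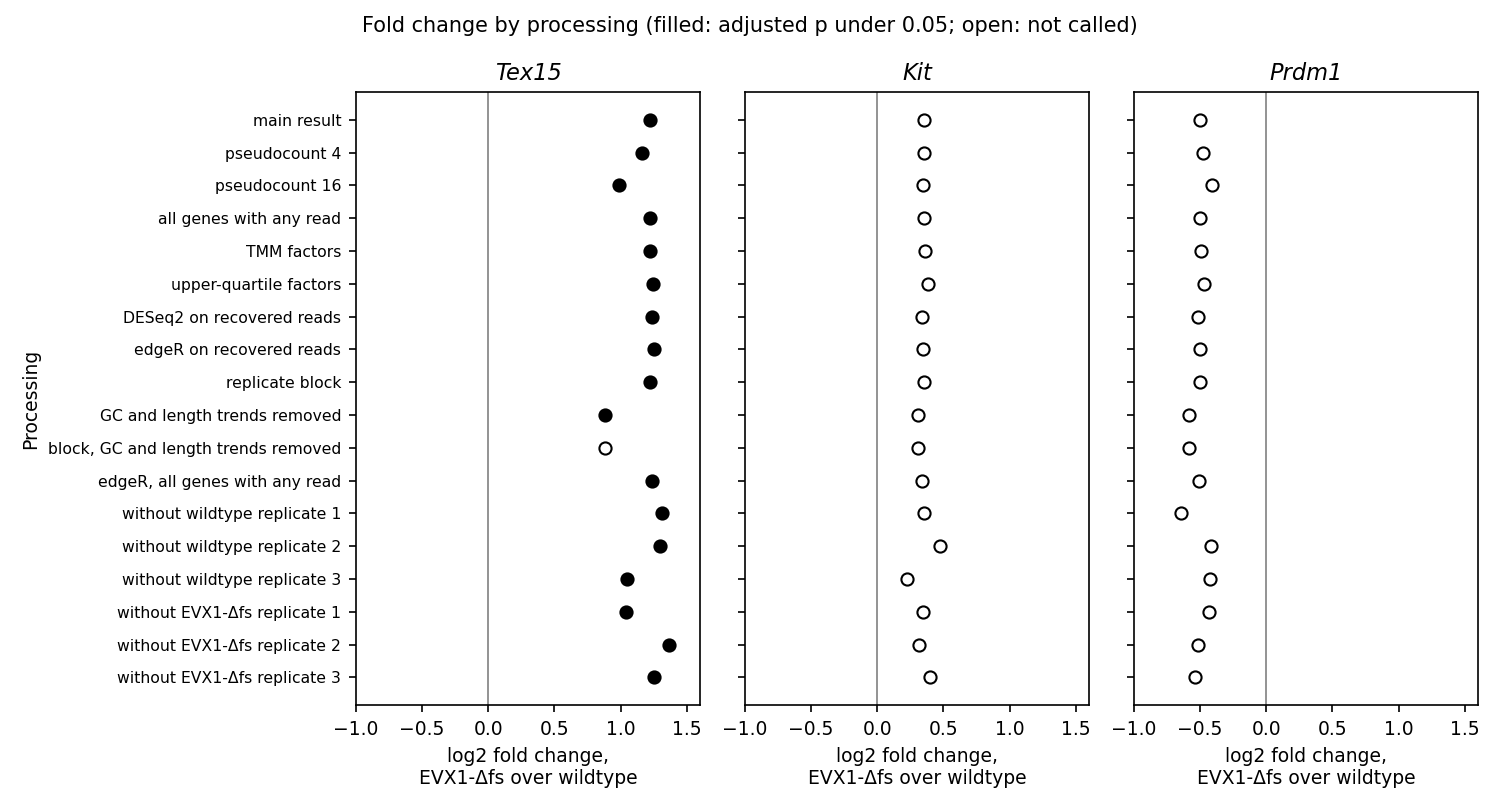
Log2 fold change of EVX1-Δfs over wildtype for Tex15, Kit and Prdm1, the genes whose libraries did not overlap among those tested, with 1 point for each way of processing the data and filled points where the gene was called. Tex15 lies between 0.88 and 1.37 and is open only where the block was combined with removal of GC and length trends, while Kit stays between 0.23 and 0.48 and Prdm1 between -0.65 and -0.41 with no filled point.

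Around these genes stands the wider programme that makes germ cells: a list of 31 other genes of germ cell induction and the early germ cell state, all above the filter. Limma called 0 higher and 6 lower in EVX1-Δfs, 19.4% in all, against 5.02% of all tested genes. At an unadjusted p under 0.05 there were 2 higher and 9 lower, against 23.1% of all tested genes in either direction. DESeq2 and edgeR each called 2 higher and 6 lower, against 6.89% and 5.3% of all genes they tested. The 6 were Bmp4 and Wnt3, the inducing signals; Lef1, a transcription factor of the WNT pathway; T; Alpl, the alkaline phosphatase used to stain germ cells; and Cxcr4, the receptor that guides their migration. Bmp4, Wnt3, Lef1, Cxcr4 and T are also genes the study discusses from these same libraries, so they are not independent evidence of a direction.

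Alpl measured 1691, 1726 and 1507 in wildtype and 1100, 1030 and 1092 in EVX1-Δfs, groups that did not overlap, and fell by 0.61 on the log2 scale (adjusted p = 0.00247, limma). Bmp4 averaged 1236 ± 220 in wildtype and 808 ± 164 in EVX1-Δfs, with a log2 fold change of -0.62 (adjusted p = 0.0163, limma). Cxcr4 averaged 154 ± 35.6 and 90.6 ± 27.6 in the same order, a log2 fold change of -0.78 (adjusted p = 0.0366, limma). T, with its means given above, had a log2 fold change of -0.58 (adjusted p = 0.0122, limma).

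With the replicate number as a block, 5 of the 6 stayed called, T being the exception (adjusted p = 0.0566). Bmp4 lost its call with trends of GC and length removed (adjusted p = 0.0728), and Alpl (adjusted p = 0.0564) and Wnt3 (adjusted p = 0.0550) lost theirs when that was combined with the block. Alpl and Wnt3 stayed called whichever library was left out. Without EVX1-Δfs replicate 1 they were the only 2 of the 6, and the adjusted p was 0.106 for Bmp4, 0.153 for Cxcr4, 0.0748 for T and 0.0578 for Lef1. Without wildtype replicate 2 the call was lost for Bmp4 (adjusted p = 0.0623), Cxcr4 (adjusted p = 0.107) and Lef1 (adjusted p = 0.0564), and Cxcr4 and Lef1 also lost it without EVX1-Δfs replicate 3 (adjusted p = 0.112 and 0.104), as did Cxcr4 without wildtype replicate 3 (adjusted p = 0.0909). The list also holds 2 markers of germ cells proper. Nanos3, a translational repressor that keeps germ cells alive, was at 15.8 ± 4.57 in wildtype and 18.5 ± 3.55 in EVX1-Δfs (log2 fold change 0.24, 95% interval -0.50 to 0.98; adjusted p = 0.735, limma). Dnd1, an RNA-binding partner of the NANOS proteins, was at 217 ± 17.9 and 199 ± 28.3 (log2 fold change -0.13, 95% interval -0.44 to 0.18; adjusted p = 0.650, limma).

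The primitive streak list shares T, Wnt3 and Fgf8 with the germ cell programme. Of its 10 genes 5 were called lower. They were Mesp1 (log2 fold change -1.02, adjusted p = 0.000181, limma), Mixl1 (log2 fold change -0.84, adjusted p = 0.00143, limma), T, Wnt3 and Eomes. The summed level of the list was 16198 to 19936 in wildtype and 11777 to 15102 in EVX1-Δfs. Over all tested genes 2.95% were called lower. The count for this list was 3 with the replicate block, where T and Eomes (adjusted p = 0.0586) were lost, 3 without EVX1-Δfs replicate 1 and 2 with the block and trends removed together. Its part in the values of the germ cell programme was not tested.

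Of 19 piRNA pathway genes, whose products make or use the small RNAs that silence transposons, 12 passed the filter. Limma called 0 of them, against 5.02% of all tested genes. At an unadjusted p under 0.05 there was 1, against 23.1% of all tested genes. It was Tdrd7, a Tudor-domain protein of germ granules, which was higher. EdgeR called Tdrd7 and DESeq2 called 0 of the list, against 5.3% and 6.89% of all genes they tested. The median log2 fold change was 0.25, against 0.00 over all tested genes, and 10 of the 12 were positive. This direction was not tested for the list as a whole. The summed level of the list was 655 to 704 in wildtype and 793 to 841 in EVX1-Δfs. Much of the difference between these sums came from Tdrd7, which averaged 132 in wildtype and 201 in EVX1-Δfs. Ddx4, the RNA helicase used as a general germ cell marker, averaged 31.6 ± 11.98 in wildtype and 46.5 ± 10.98 in EVX1-Δfs (log2 fold change 0.59, 95% interval -0.03 to 1.22; adjusted p = 0.240, limma). Nanos2, a male germ cell factor, had 0 reads in all 6 libraries, where counting error alone allows up to about 3 expected reads over the 6 together.

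Of 28 further meiosis genes measured, 15 passed the filter, 1 was called higher and 0 lower, a share of 6.67% against 5.02% of all tested genes. DESeq2 called 0 higher, with no adjusted p for Spo11, edgeR called 2 higher, and both called 0 lower. These 2 tests called 6.89% and 5.3% of all genes they tested. At an unadjusted p under 0.05 there were 3 higher and 1 lower, against 23.1% of all tested genes in either direction. The called gene was Spo11, the enzyme that cuts DNA to start meiotic recombination. It measured 20.1, 15.0 and 8.02 in wildtype and 32.7, 35.0 and 31.4 in EVX1-Δfs, from 45 and 99 reads, and every EVX1-Δfs library was the higher.

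The log2 fold change of Spo11 was 1.23 ± 0.34 (SE; adjusted p = 0.0408, limma). The call was lost with the replicate block (adjusted p = 0.0752), with GC and length trends removed (adjusted p = 0.0878, log2 fold change 1.17), without the filter on low values (adjusted p = 0.0706), and without wildtype replicate 3 (adjusted p = 0.130, log2 fold change 0.89) or EVX1-Δfs replicate 1 (adjusted p = 0.121), 2 (adjusted p = 0.0992) or 3 (adjusted p = 0.107). Stra8, the retinoic acid target that opens meiosis, and Sycp1, the partner of Sycp3, were near 0, with 10 and 4 reads in wildtype and 5 and 5 in EVX1-Δfs. The median log2 fold change of the 15 tested meiosis genes was 0.31, against 0.00 over all tested genes. Among the 15, Dmc1, a meiotic recombinase, and Syce1 passed the filter on low values mainly through the EVX1-Δfs libraries. Syce1 measured 8.61, 9.73 and 16.0 in wildtype and 17.7, 18.0 and 15.2 in EVX1-Δfs. The median and counts of this list include both genes and were therefore not read as a test.

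Germline genes are kept silent in other cells by PRC1.6, DNA methyltransferases and histone H3K9 methylation, and 21 genes of these systems were all above the filter. Limma called 1 of them higher, 4.76%, and 0 lower, against 5.02% of all tested genes called in either direction. The called gene was Mga, the large subunit of PRC1.6 that carries the E-box binding domain, at 1196 ± 117 in wildtype and 1634 ± 243 in EVX1-Δfs (log2 fold change 0.44, adjusted p = 0.0398, limma). Its call was lost with the replicate block (adjusted p = 0.0894), and with GC and length trends removed its log2 fold change was 0.18 (adjusted p = 0.399). It was also lost without wildtype replicate 1 (adjusted p = 0.0670) or 3 (adjusted p = 0.107) and without EVX1-Δfs replicate 1 (adjusted p = 0.162) or 3 (adjusted p = 0.155). At an unadjusted p under 0.05 there were 3 higher and 1 lower, against 23.1% of all tested genes in either direction. DESeq2 called 1 higher and 1 lower, and edgeR 1 higher and 0 lower, against 6.89% and 5.3% of all genes they tested.

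**Figure D4:**
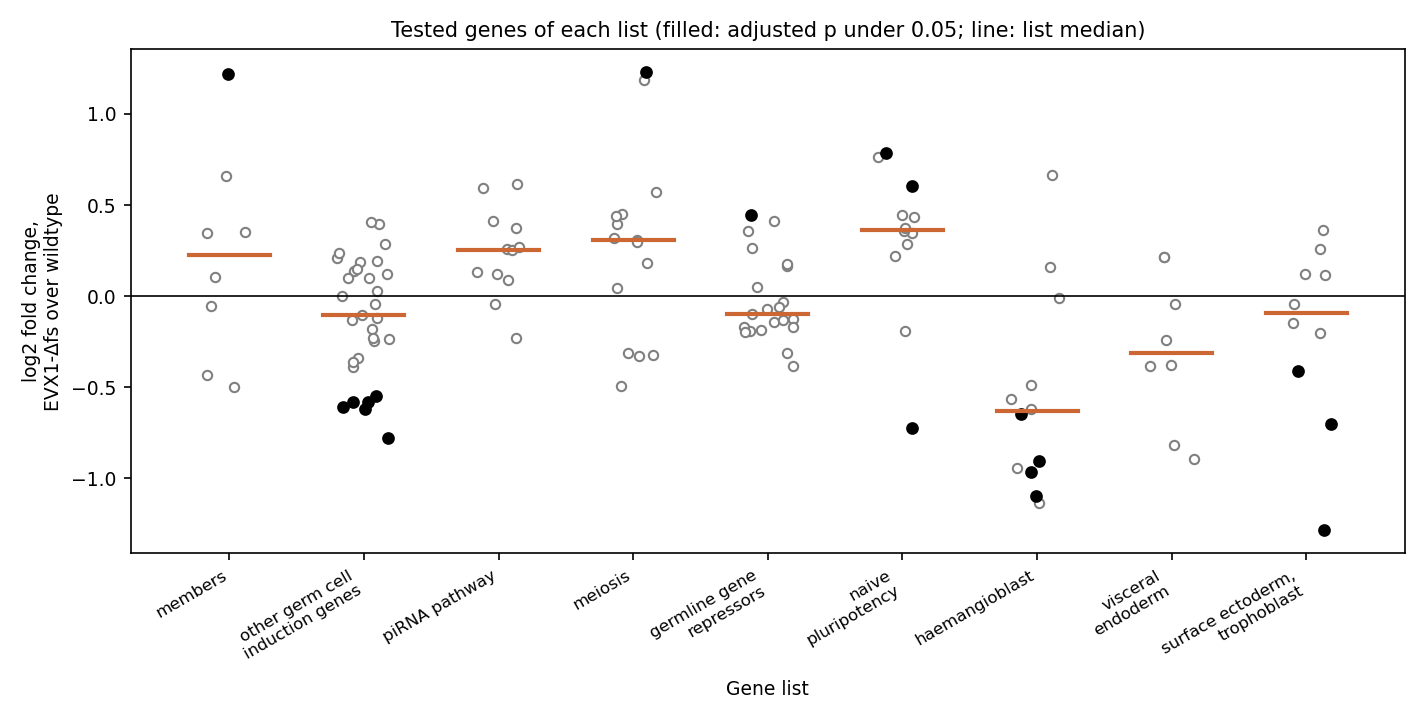
Log2 fold changes of the tested genes in each list, 1 point per gene, with filled points for called genes and a line at the median of the list. The germ cell programme has 6 called genes below 0 and none above, while the piRNA and meiosis lists have medians of 0.25 and 0.31 with 0 and 1 called genes. The median over all tested genes was 0.00, and the list medians were not tested.

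Several of these genes are also used by other cells in the embryoid body, so marker lists for those cells were read beside them. Over all tested genes 2.08% were called higher and 2.95% lower, and 23.1% had an unadjusted p under 0.05 (limma). Of 12 naive pluripotency genes, a state that also uses Prdm14, Dppa3 and Tfap2c, 2 were called higher and 1 lower. Tfcp2l1 averaged 54.7 ± 5.38 in wildtype and 94.97 ± 8.48 in EVX1-Δfs (log2 fold change 0.79, adjusted p = 0.0265, limma). Fgf4 averaged 153 ± 8.48 and 233 ± 20.9 (log2 fold change 0.60, adjusted p = 0.0221, limma). Tbx3 averaged 1864 ± 362 and 1117 ± 50.8 (log2 fold change -0.72, adjusted p = 0.00178, limma). The calls of Tfcp2l1 and Fgf4 were lost with the replicate block (adjusted p = 0.0574 and 0.0579) and without wildtype replicate 1 (0.0795 and 0.0689), EVX1-Δfs replicate 1 (0.0613 and 0.0976) or EVX1-Δfs replicate 3 (0.0906 and 0.0932), and that of Tfcp2l1 also without EVX1-Δfs replicate 2 (0.0714), with GC and length trends removed (0.0728) and without the filter on low values (0.0504). DESeq2, edgeR and upper-quartile factors each called 4 genes of this list higher, and limma called 5 without wildtype replicate 3. In either direction, DESeq2 and edgeR called 6.89% and 5.3% of all genes they tested. Of the 12 genes 10 had a positive log2 fold change, with a median of 0.36 and 6 higher and 1 lower at an unadjusted p under 0.05. The summed level of the list was 5467 to 6181 in wildtype and 5387 to 5507 in EVX1-Δfs, and much of that sum came from Tbx3 and from Dppa5a, at 2374 ± 196 and 2075 ± 94.96.

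Haemangioblasts, the shared precursors of blood and vessel cells that can carry Kit, had 0 of 12 markers called higher and 4 called lower: Etv2 (log2 fold change -1.10), Gata2 (-0.96), Kdr (-0.91) and Lmo2 (-0.64). The call of Lmo2 was lost with trends removed (adjusted p = 0.0907), without wildtype replicate 2 (adjusted p = 0.0799) and without EVX1-Δfs replicate 1 (adjusted p = 0.0759). Kdr, the VEGF receptor, averaged 1987 ± 385 in wildtype and 1048 ± 71.1 in EVX1-Δfs, and the summed level of the list was 3471 to 4622 in wildtype and 2031 to 2342 in EVX1-Δfs. Wildtype replicate 2 stood apart in some of these genes. Fli1 was at 74.3 there against 31.6 and 25.2 in the other wildtype libraries, and Runx1 at 111 against 47.8 and 45.8. In others it did not, with Etv2 at 589 against 612 and 687 and Gata1 at 17.7 against 17.2 and 5.73. That library also had the highest wildtype count of Kit. Between the lines, Kit was higher in EVX1-Δfs, without a call, while the summed level of this list was lower there. Of 12 surface ectoderm and trophoblast markers, cells that also use Tfap2c, 10 were tested, 0 were called higher and 3 lower, Hand1, Cdx2 and Krt8, and the summed level was 14926 to 17274 in wildtype and 10013 to 12641 in EVX1-Δfs. With trends removed 1 of the 3 stayed called, Hand1, with adjusted p = 0.0577 for Cdx2 and 0.245 for Krt8. Krt8 also lost its call with the replicate block (adjusted p = 0.0844) and when any library but wildtype replicate 3 was left out (adjusted p 0.0604 to 0.198). Of the 10 tested genes of this list 4 had a positive log2 fold change, and the median was -0.09. Much of the summed level came from Krt8, at 8481 ± 238 in wildtype and 6392 ± 613 in EVX1-Δfs. The study lists Hand1 and Cdx2 among genes of posterior mesoderm patterning. Of 14 visceral endoderm markers 8 were tested and limma called 0, with 5 lower and 0 higher at an unadjusted p under 0.05. The summed level was 6173 to 7181 in wildtype and 5394 to 5605 in EVX1-Δfs. Much of that sum came from Apoe, at 5652 ± 653 in wildtype and 4764 ± 176 in EVX1-Δfs (adjusted p = 0.216, limma). With trends removed the log2 fold change of Apoe went from -0.24 to -0.07. Among genes below the filter, Hnf4a had 7 reads in wildtype and 24 in EVX1-Δfs, and Afp and Ttr were near 0. The part of these cell types in the values of the germ cell genes was not tested.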

How the data were processed

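RNA-seq libraries from mRNA of day 4 embryoid bodies (3 wildtype, 3 EVX1-Δfs) had been sequenced on an Ion Proton instrument. The authors aligned reads to mm9 with TopHat2 and then TMAP, used HTSeq with default options to count reads on genes, and divided the counts by DESeq2 size factors; the annotation and the tool versions are not given in the sources used here. The deposited values are therefore a signal, normalised read counts, not raw counts. Each library's values were whole multiples of 1 step, and dividing by it recovered whole reads for 100% of values (tolerance 0.001, largest distance 3.71e-05), between 7597879 and 9914471 reads per library. The counting precision of a low gene is limited by its few reads.

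Genes were tested with limma 3.58.1 (trend) in R 4.3.3 on log2(normalised count + 1), with genotype as the only term, over the 13136 genes at 10 or more in at least 3 libraries, with Benjamini-Hochberg adjustment and a threshold of 0.05. The study's own test, DESeq2, takes unnormalised counts, so DESeq2 1.42.0 and edgeR 4.0.16 (quasi-likelihood) served as alternatives, applied to the recovered reads. Further alternatives were pseudocounts of 4 and 16, no filter, TMM and upper-quartile factors, the replicate number as a block, removal of trends with GC content and length, and leaving out each library; edgeR on all genes with any read was added after seeing the data. Scripts were tested on simulated data. The labels state that compared samples were set up on the same day, and same-numbered libraries were taken as pairs on that basis, although the labels do not say that the number marks a day, so values with the block or over pairs rest on this assumption. Deviations from the group means of same-numbered libraries correlated at 0.111, 0.00933 and -0.101 over 13136 genes. Replicates were separate differentiations of 1 line each, so p-values measure the spread between differentiations.

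Gene positions are from GENCODE on NCBIM37 (mm9), to which 21932 of the 23353 symbols matched, 725 through an older symbol. Copies elsewhere in the genome were sought with minimap2 2.31-r1302. The counting setting for strand was not stated for these libraries beyond default options, so overlapping genes on opposite strands are named where they share exons. The members and gene lists were chosen with earlier results of these data known. Named were all 10 members; from each other list up to 4 called genes by size of change, and markers near 0; and the 3 genes most like a called member over the 6 libraries, with a mean of at least 50. Genes named outside this rule were chosen after their values were seen. They were Lef1, Eomes, Ddx4, Nanos3, Dnd1, Tdrd7, Dppa5a, Fli1, Runx1, Gata1, Apoe, Hnf4a, Fgf8, Syce1 and those in the closing section.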

Additional observations from a re-analysis of the deposited data

How the results depend on the processing

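Of 135 values of the 8 tested members under all alternatives (DESeq2 gave no adjusted p for Sycp3), 130 kept their direction and side of the threshold, Tex15 lost its call with the replicate block and trends of GC and length removed together, leaving 0 members called higher, and 4 values of Tfap2c changed sign. These were 0.0425 with trends removed, with or without the block, and the values without wildtype replicate 1 and without EVX1-Δfs replicate 2, within a leave-one-out range of -0.162 to 0.0860. Over the scalings and libraries left out, the log2 ratios of means of the 2 low members were 0.73 to 1.18 for Mael and 1.11 to 1.75 for Dazl. Leaving out a library could not turn their sign, because every EVX1-Δfs library lay above every wildtype library. The block alone changed no call among the members.

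Other germ cell programme genes called higher numbered 1 with pseudocount 16, 2 with upper-quartile factors, DESeq2, edgeR, edgeR on all genes and trends removed, and 0 to 2 with 1 library left out. Those called lower numbered 2 with the block and trends removed and 2 to 8 with 1 library left out. For piRNA genes, 1 was called higher with pseudocount 16, upper-quartile factors, edgeR and edgeR on all genes, and 0 to 1 with 1 library left out. For meiosis genes, 2 were called higher in those 4 settings, 0 with no filter, DESeq2, the block, and the block with trends removed, and 0 to 1 with 1 library left out. DESeq2 gave no adjusted p for Spo11 and Dmc1. Of the repressors, 0 were called higher with the block, with trends removed and with both, 2 with edgeR on all genes and 0 to 1 with 1 library left out, and 1 was called lower with DESeq2 and edgeR on all genes and 0 to 1 with 1 library left out. The cause of these differences was not tested.

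Where both groups held few reads, as for Dazl with 7 and 19, depth limits what can be seen. With 3 libraries a group, no formal test for a deviating library was run.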

Other observations

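The values here were chosen after the data were seen and carry no explanation. Dmc1, the recombinase that works downstream of Spo11 in meiosis, measured 9.57, 9.73 and 14.9 in wildtype and 19.6, 35.0 and 27.6 in EVX1-Δfs, groups that did not overlap. It passed the filter on low values mainly through the EVX1-Δfs libraries, all 3 at 10 or more against 1 of wildtype, so its difference carries no weight as a test. Its log2 fold change of 1.19 was not called (adjusted p = 0.0550, limma), while edgeR called it (adjusted p = 0.0430). Sycp2, which lies beside Sycp3 in the chromosome axis, was below the filter, with 7 reads over the wildtype libraries and 24 over the EVX1-Δfs libraries. Tdrd7 averaged 132 ± 30.9 in wildtype and 201 ± 33.1 in EVX1-Δfs (log2 fold change 0.62, adjusted p = 0.0515, limma; 0.0499, edgeR).

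Nanog and Sox2, pluripotency factors that germ cells keep, lay just outside the threshold. Nanog averaged 1046 ± 83.0 in wildtype and 1382 ± 183 in EVX1-Δfs (log2 fold change 0.40, adjusted p = 0.0552, limma), and Sox2 884 ± 75.9 and 1181 ± 196 (log2 fold change 0.41, adjusted p = 0.0559, limma). Both were called by DESeq2 (adjusted p = 0.0293 and 0.0347) and edgeR (adjusted p = 0.0430 and 0.0418).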
